A study of Arabidopsis thaliana with 4 samples.

Results

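The genes described here are 5 regulators of how many branches a leaf trichome of *Arabidopsis thaliana* forms: *STI* (STICHEL, AT2G02480), *ZWI* (ZWICHEL, AT5G65930), *AN* (ANGUSTIFOLIA, AT1G01510), *KTN1* (KATANIN 1, AT1G80350) and *KAK* (KAKTUS, AT4G38600). They were picked by locus identifier, not by their measured values, although earlier results of these data were known. All 5 were found among the 33544 loci listed. Polyadenylated RNA of whole seedlings aged 14 days was sequenced from wild-type Col-0 and from *ect2*, a line with a T-DNA insertion in *ECT2* in the Col-0 background, with 2 libraries per genotype. The plants had no treatment beyond normal growth in long days at a constant temperature. No source used here says whether the replicates were separately grown plants, how many seedlings were pooled or which insertion allele was used. The p-values therefore cover the spread among 4 libraries, which may be technical. The variance behind them is drawn in part from the other genes tested.

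A leaf trichome of *Arabidopsis* is a single large epidermal cell whose branches are laid down by local changes in the direction of growth, guided by microtubules and later shaped by actin. Branch number also follows the DNA content of the cell, because rounds of DNA replication without division (endoreduplication) come before branching. The product of *ECT2* is a reader of m6A, the methyl mark on adenosines of messenger RNA, and its mutants are known for trichomes with extra branches. Of the 5 genes, *STI*, *ZWI*, *AN* and *KTN1* promote branching, since mutants in each have fewer branches, and *KAK* restricts it, since its mutants have supernumerary branches and more DNA.

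The 5 genes encode proteins of different functions, although *STI* and *KTN1* both belong to the AAA ATPases. In the RefSeq annotation of TAIR10.1, *STI* lies on the plus strand of chromosome 2 from 660655 to 665635 and has 7 exons and a product of 1218 amino acids, an AAA-type ATPase that resembles a subunit of bacterial DNA polymerase III. *ZWI* lies on the minus strand of chromosome 5 from 26369857 to 26376572, with 22 exons, and encodes a calmodulin-binding kinesin of 1259 amino acids that moves along microtubules. *AN* lies on the plus strand of chromosome 1 from 187145 to 190472, with 7 exons, and its product of 636 amino acids is a homolog of the animal CtBP proteins. *KTN1* (*ERH3* in the annotation) lies on the minus strand of the same chromosome from 30205314 to 30208268, with 7 exons, and encodes the microtubule-severing p60 subunit of katanin, of 523 amino acids. *KAK* lies on the minus strand of chromosome 4 from 18040623 to 18049700, with 17 exons, and encodes a HECT ubiquitin ligase of 1888 amino acids that marks the trichome transcription factors GL3 and EGL3 for degradation. Their annotated transcripts measure 4251 nt (*STI*), 4161 nt (*ZWI*), 2637 nt (*AN*), 1975 nt (*KTN1*) and 6955 nt (*KAK*).

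The 3′ untranslated regions (3′ UTRs) were searched on the transcribed strand for UGUAC and UGUAU, since UGUA followed by a pyrimidine is the motif reported for RNA bound by ECT2. No match was found in the 298 nt of *STI* or the 255 nt of *ZWI*, while *AN* had 4 matches in 636 nt, *KTN1* had 1 in 185 nt and *KAK* had 1 in 880 nt. The windows are shown because they are where the members differ in this motif. They are in RNA letters from 5′ to 3′, with the motif in capitals:
*AN*, bases 308 to 323 of the 3′ UTR, 3 matches, chr1:190137-190166, plus strand: aggugugUGUAUUGUAUuUGUAUaugcugc
*AN*, bases 521 to 525, chr1:190347-190371, plus strand: gauuuaaauuUGUACguggcaugag
*KTN1*, bases 66 to 70, chr1:30205419-30205443, minus strand: uguuguuuauUGUAUcauuauuauu
*KAK*, bases 35 to 39, chr4:18041454-18041478, minus strand: uccccucucuUGUACauuacaucgg
Of the 3′ UTRs of all tested genes, 67.1% hold at least 1 match. Among 3′ UTRs within 20% of the same length, the share was 68.9% for the length of *STI*, 66.3% for *ZWI*, 84.6% for *AN*, 58.7% for *KTN1* and 87.4% for *KAK*. A match is a description of the letters, and methylation or binding was not measured here.

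Values were deposited as 1 number per gene and library, taken here to be FPKM, fragments per kilobase of transcript scaled to the size of the library. The number of genes at 1 FPKM or above was 18908 to 19114 per library, and the 19308 genes that did so in 2 or more libraries were tested. Total reads are not given, but the product of FPKM and transcript length piles up at a lowest value in each library, as single fragments would give. From it about 11500000 and 7960000 fragments were estimated for Col-0 replicates 1 and 2, and 11400000 and 7280000 for *ect2* replicates 1 and 2. *ECT2* itself measured 137 and 76.7 FPKM in the wild type, against 9.07 and 8.58 FPKM in the mutant, the direction the labels give, although the difference of -3.40 on the log2(FPKM + 1) scale missed the threshold over all genes (limma, adjusted p = 0.153). Markers of shoot (3 of 3), root (5 of 5) and trichomes (5 of 5) were above 0 in every library, as whole seedlings would give. Col-0 replicate 1 stood apart: its 7 seed storage and oil body markers summed to 265 FPKM against 4.64 to 8.36 FPKM in the other libraries, and its 4 sugar-starvation genes to 54.1 FPKM against 1116 to 1866 FPKM.

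All 5 genes were expressed in every library, and none passed the test between genotypes. The order of levels was *AN*, *KTN1*, *KAK*, *ZWI*, *STI* in 4 of 4 libraries, from a mean of 16.8 FPKM for *AN* down to 2.01 FPKM for *STI*. *STI* was lower in both *ect2* libraries than in both Col-0 libraries, while *AN* and *KTN1* were higher in both, and *ZWI* and *KAK* overlapped. The test was limma on log2(FPKM + 1) over all tested genes, with Benjamini-Hochberg adjustment and a threshold of 0.05. Limma draws the variance of each gene toward a value common to genes of like level. The standard errors (SE) and intervals given below are therefore not the spread of a gene's own replicates. The test called 0 of 5 members, where it called 5 of 19308 genes (0.0259%). At an unadjusted p under 0.05 there were also 0 members, against 4.86% of all tested genes. An exact permutation test of 2 against 2 libraries cannot give a two-sided p below 0.333. In RNA of whole seedlings, fewer cells that express a gene and less RNA per cell cannot be told apart.

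**Figure D1:**
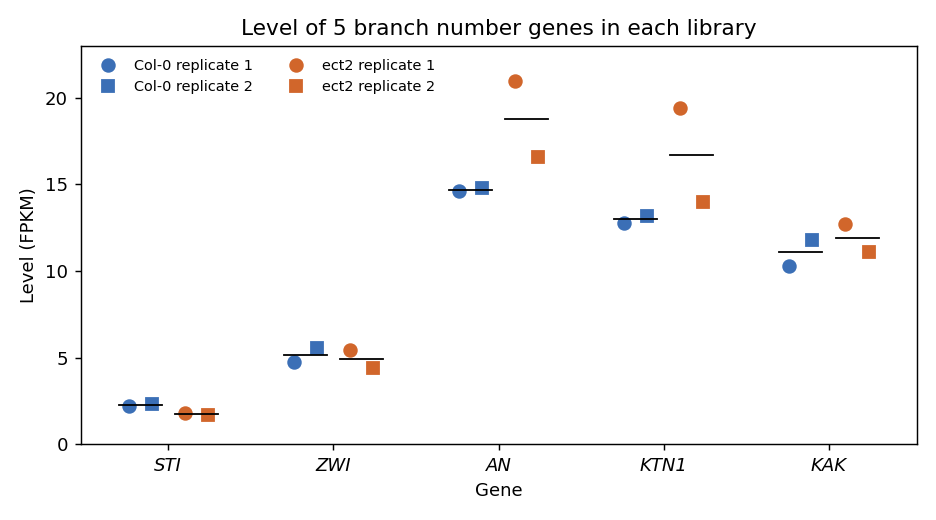
Level of each of the 5 genes in FPKM in every library, with circles for replicate 1, squares for replicate 2 and a black line at the mean of each genotype (n = 2). *STI* is lower in both *ect2* libraries (1.81 and 1.71 FPKM) than in both Col-0 libraries (2.22 and 2.31 FPKM), and *AN* and *KTN1* are highest in *ect2* replicate 1 (21.0 and 19.4 FPKM).

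*STI*, whose gene dose is known to set branch number, measured 2.22 and 2.31 FPKM in the wild type, against 1.81 and 1.71 FPKM in the mutant. The genotypes did not overlap, and replicates of a genotype lay close together. The means of the wild type and the mutant were 2.26 ± 0.06 and 1.76 ± 0.07 FPKM (SD over 2 libraries), and their ratio was 0.778. Among all tested genes, 20.2% had both *ect2* libraries below both Col-0 libraries, so a pattern of this kind is common in these data. The difference on the log2(FPKM + 1) scale was -0.24 ± 0.23 (SE), with a 95% interval of -0.81 to 0.33 and an adjusted p of 0.856 from limma. That scale understates the change of a gene at this level, and with a pseudocount of 0.1 the difference was -0.34 (limma, adjusted p = 0.855). Without Col-0 replicate 1 it was -0.26. *STI* was the member with the fewest fragments, estimated at 108 and 78 in Col-0 and 88 and 53 in *ect2*. Counting alone then gives an error of 9.61% to 13.7% per library and of 0.16 on the log2 ratio of the genotypes. The replicates of each genotype lay closer together than this estimated counting error.

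*ZWI*, the kinesin whose loss gives short-stalked trichomes with fewer branches, measured 4.77 and 5.57 FPKM in the wild type, against 5.47 and 4.40 FPKM in the mutant. Col-0 replicate 2 and *ect2* replicate 1 were the higher libraries, so the genotypes overlapped. The means of 5.17 ± 0.57 and 4.94 ± 0.76 FPKM (SD over 2 libraries) differed by less than the spread within either genotype. The difference was -0.06 ± 0.24 (SE), with a 95% interval of -0.65 to 0.53 (limma, adjusted p = 0.969). It was -0.15 when Col-0 replicate 1 was left out and -0.19 when *ect2* replicate 1 was, but 0.036 and 0.072 when Col-0 replicate 2 or *ect2* replicate 2 was, so the data give no direction for *ZWI*.

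*AN*, which acts in branching and in the width of leaf cells, measured 14.6 and 14.8 FPKM in the wild type, against 21.0 and 16.6 FPKM in the mutant. Both *ect2* libraries were above both Col-0 libraries, with *ect2* replicate 1 well above the rest. Both libraries of *ect2* were above both of Col-0 in 17.5% of all tested genes. The means were 14.7 ± 0.13 and 18.8 ± 3.15 FPKM (SD over 2 libraries), and their ratio was 1.28. The log2(FPKM + 1) difference of *AN* was 0.32 ± 0.23 (SE), with a 95% interval of -0.26 to 0.91 (limma, adjusted p = 0.844). Without *ect2* replicate 1 it was 0.16, without *ect2* replicate 2 it was 0.48, and without Col-0 replicate 1, the library that stood apart, it was 0.31.

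*KTN1*, whose product cuts microtubules so that they can be rearranged, measured 12.8 and 13.2 FPKM in the wild type, against 19.4 and 14.0 FPKM in the mutant. Again *ect2* replicate 1 was the high library, and *ect2* replicate 2 lay just above Col-0. The means were 13.0 ± 0.26 and 16.7 ± 3.80 FPKM (SD over 2 libraries), and their ratio was 1.29. The difference was 0.32 ± 0.25 (SE), with a 95% interval of -0.30 to 0.95 (limma, adjusted p = 0.844). It was 0.10 without *ect2* replicate 1, 0.54 without *ect2* replicate 2 and 0.30 without Col-0 replicate 1, so the size of the *KTN1* difference rests on *ect2* replicate 1. Replicates of *ect2* lay 0.44 apart for *KTN1* and 0.33 for *AN*, against 0.04 and 0.02 for the Col-0 replicates.

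*KAK*, the only one of the 5 that restricts branching, measured 10.3 and 11.8 FPKM in the wild type, against 12.7 and 11.1 FPKM in the mutant. The genotypes overlapped, and Col-0 replicate 1 was lowest. The means of 11.1 ± 1.08 and 11.9 ± 1.14 FPKM (SD over 2 libraries) gave a ratio of 1.08. The difference was 0.10 ± 0.23 (SE), with a 95% interval of -0.46 to 0.66 (limma, adjusted p = 0.939). It was 0.011 and 0.012 when Col-0 replicate 1 or *ect2* replicate 1 was left out, and 0.19 when either replicate 2 was. *KAK* had the most fragments, an estimated 564 to 1008 per library, for a counting error of 3.15% to 4.21%.

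These intervals set the size of change that 4 libraries leave possible. Expressed as a fold of *ect2* over Col-0 on the log2(FPKM + 1) scale, they run from 0.571 to 1.25 for *STI*, 0.639 to 1.44 for *ZWI*, 0.834 to 1.87 for *AN*, 0.812 to 1.93 for *KTN1* and 0.728 to 1.58 for *KAK*. In terms of FPKM + 1, a rise of any member to 2 times its Col-0 value lies outside them. So does a fall of *AN*, *KTN1* or *KAK* to under 0.7 of that value. In FPKM itself the limits lie further from 1, most of all for *STI*, so these bounds do not carry over to FPKM. Each member's difference was within the ordinary range, since 35.3% of all tested genes differed by more than *KTN1* in either direction, 35.6% by more than *AN*, 48.6% by more than *STI*, 76.3% by more than *KAK* and 86.0% by more than *ZWI*.

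Across the 5 levels, *AN* and *KTN1* were neighbours whose ranges over the 4 libraries overlapped, although *AN* was the higher of the pair in each library, by 1.13-fold on average. The range of *KTN1* began at 12.8 FPKM, just above the highest value of *KAK*, 12.7 FPKM. *KAK* was 2.28 times as high as *ZWI* and *ZWI* 2.51 times as high as *STI*, with clear gaps between their ranges. Against all tested genes by mean FPKM, *AN* stood at the 62.7th percentile, *KTN1* at the 59.6th, *KAK* at the 52.6th, *ZWI* at the 29.9th and *STI* at the 10.4th.

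Since a ratio of 2 genes within a library does not depend on scaling between libraries, the balance between members was also described. Of the 10 ratios, 9 did not overlap between genotypes, where 37.1% of all pairs among 19138 tested genes above 0 in every library did so. The 10 ratios share 5 genes, so they are not independent of each other, and no test was made. *STI* over *AN* and *STI* over *KTN1* could not overlap, since *STI* was lower and the other gene higher in both *ect2* libraries. *STI* over *AN* was 0.152 and 0.156 in Col-0 and 0.0863 and 0.103 in *ect2*. *STI* over *KTN1* was 0.173 and 0.175 in Col-0 and 0.0935 and 0.122 in *ect2*. Relative to *AN* or *KTN1*, *STI* was thus 0.617 and 0.618 times its Col-0 share. The ratio of *STI*, a promoter of branching, to *KAK*, which restricts it, was 0.215 and 0.195 in Col-0 and 0.142 and 0.153 in *ect2*. *ZWI* over *AN* was 0.326 and 0.376 in Col-0 and 0.260 and 0.266 in *ect2*, and *ZWI* over *KTN1* behaved alike (0.373 and 0.423, against 0.282 and 0.314). In the other direction, *AN* over *KAK* was 1.42 and 1.25 in Col-0 and 1.65 and 1.49 in *ect2*. *AN* over *KTN1* was the most even ratio, at 1.14 and 1.13 in Col-0 and 1.08 and 1.18 in *ect2*, and was the one that overlapped.

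**Figure D2:**
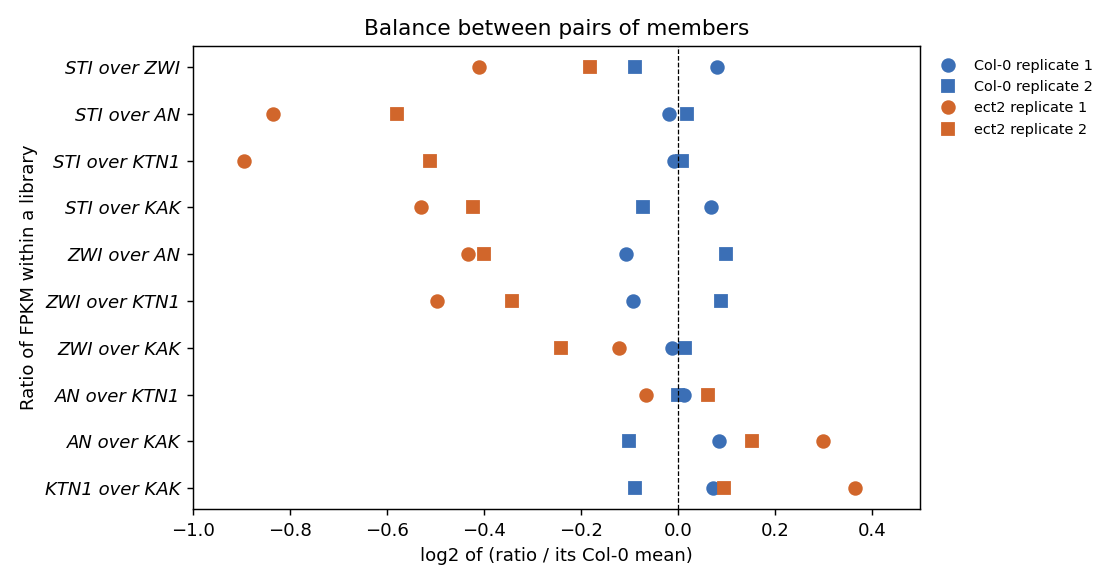
For each pair of members, the FPKM ratio within a library divided by its mean in Col-0, as log2; circles are replicate 1, squares replicate 2. All ratios with *STI* as the numerator lie to the left in *ect2*, and *AN* over *KTN1* (1.08 to 1.18) lies near 0 in the 4 libraries.

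*AN* and *KTN1* followed each other through the 4 libraries more closely than any other pair of members. After each gene was centred on its own mean, the root mean square difference between their log2(FPKM + 1) profiles was 0.041, against 0.085 for *ZWI* and *KAK*, the next closest pair, and 0.314 for *STI* and *KTN1*, the farthest. *AN* and *KTN1* deviated by 0.32 and 0.38 in *ect2* replicate 1, by -0.17 and -0.18 in Col-0 replicate 1 and by -0.15 and -0.14 in Col-0 replicate 2. *STI* ran the other way, at 0.10 and 0.14 in Col-0 and -0.09 and -0.15 in *ect2*.

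The median difference between genotypes rose with transcript length in the libraries as a whole. Among tested protein-coding genes, the median difference of *ect2* and Col-0 was -0.12 for transcripts up to 1000 nt (3138 genes), -0.02 above that and up to 2000 nt, 0.03 up to 3000 nt, 0.04 up to 4000 nt and 0.07 over 4000 nt (581 genes). In *ect2* replicate 1 the median deviation ran from -0.07 in the shortest class to 0.09 in the longest, and in Col-0 replicate 1 from 0.02 to -0.13. The other libraries had no such run. In Col-0 replicate 2 it was 0.10 in the shortest class, -0.02 up to 3000 nt and 0.04 in the longest. In *ect2* replicate 2 it stayed between -0.04 and -0.01. *AN* belongs to the class up to 3000 nt, where 20.1% of genes were higher in both *ect2* libraries and 15.5% lower. *KTN1* belongs to the class up to 2000 nt, where 17.0% were higher and 21% lower. The positive difference of *KTN1* thus ran against the median of its class, -0.02. *STI*, with *ZWI* and *KAK*, belongs to the class over 4000 nt, where 9.47% were lower in both *ect2* libraries and 22.5% higher, so *STI* ran against the median of its class. The part of transcript length in the members' differences was not tested.

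**Figure D3:**
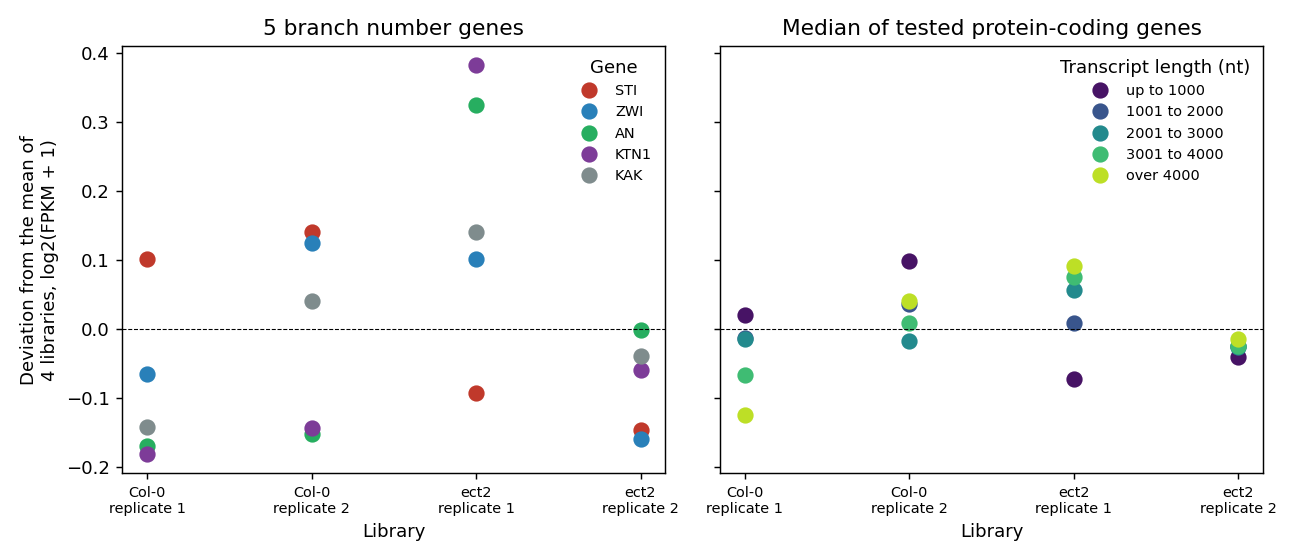
Left, the deviation of each of the 5 genes from its own mean over the 4 libraries, in log2(FPKM + 1); right, the median deviation of tested protein-coding genes in 5 classes of transcript length, on the same axis. *AN* and *KTN1* stand at 0.32 and 0.38 in *ect2* replicate 1, above the class medians there, which run from -0.07 to 0.09.

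Trichome markers were low and varied by library. The 5 markers, *GL1*, *GL2*, *GL3*, *TTG2* and *MYB106*, summed to 10.1 and 9.17 FPKM in Col-0 and to 9.63 and 6.56 FPKM in *ect2*, and none was at 0 in any library. The *ect2* mean was lower than the Col-0 mean for 4 of the 5, with ratios of 0.679 for *GL1*, 0.583 for *GL3*, 0.698 for *TTG2* and 0.466 for *MYB106*, and higher for *GL2*. Of these 4, *GL1* was the one whose genotypes did not overlap. *GL3* and *MYB106* were too low to test. *MYB106* measured 1.93 and 0.632 FPKM in the wild type, against 0.768 and 0.426 FPKM in the mutant. Its low ratio thus rests on Col-0 replicate 1, the library that stood apart. *GL1*, a MYB factor that starts trichome fate, measured 2.14 and 2.17 FPKM in the wild type, against 1.14 and 1.79 FPKM in the mutant, lower in both mutant libraries as *STI* was (limma, adjusted p = 0.843). *GL2*, a homeodomain factor of the trichome and of root epidermis, measured 2.68 and 3.87 FPKM in the wild type, against 4.91 and 3.25 FPKM in the mutant, with overlap. The part of trichome number in the *STI* difference was not tested.

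The closest relative of *STI*, AT1G14460, which the annotation names only as an AAA-type ATPase, was listed at levels close to those of *STI*. It measured 2.61 and 2.41 FPKM in the wild type, against 2.15 and 1.82 FPKM in the mutant, also lower in both mutant libraries, with a difference of -0.24 (limma, adjusted p = 0.857). The transcripts of the pair align over 2325 nt at 80.7% identity, and their longest identical run is 43 nt, so some reads could be shared between them, depending on read length and on how multiple matches were counted, neither of which the sources consulted state. The more distant relatives AT4G18820 and AT4G24790 overlapped between genotypes, with differences of 0.01 and 0.04 (limma, adjusted p = 0.996 and 0.977). *UPL4*, the paralog of *KAK*, measured 2.66 and 5.89 FPKM in the wild type, against 5.32 and 4.20 FPKM in the mutant, a wider spread than *KAK* itself. No identical run over 29 nt linked *ZWI*, *AN*, *KTN1* or *KAK* to a transcript of a gene that does not overlap them. The longest alignment of *KAK*, with *EMB2770*, covered 281 nt at 84.3% identity. *AN* shares 65 bases with *ASG4* on the same strand and *KAK* shares 306 bases with *BGAL14* on the opposite strand, and these neighbours were listed at 0 to 0.33 FPKM and at 0.

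Genes of the same processes were taken from 3 lists with 32 genes, of which 28 were tested. None passed the test, with 0 also at an unadjusted p under 0.05. Positive differences were seen in 13 and negative ones in 15, with a median of -0.02, beside 48.8% positive and a median of -0.01 over all tested genes. Both *ect2* libraries were above both Col-0 libraries in 2 of the 28 and below in 3, where 17.5% and 20.2% of all tested genes were.

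Of 14 microtubule and cytoskeleton genes, 13 were tested, 8 with a positive and 5 with a negative difference, and the median was 0.02, or -0.02 with equal library medians. The 4 of smallest p were *TFCA*, *BLT*, *NEK6* and *DWA3*; where 4 values follow each other, they are Col-0 replicates 1 and 2 and then *ect2* replicates 1 and 2. *TFCA* (KIESEL), a tubulin folding cofactor, measured 57.9 and 70.8 FPKM in the wild type, against 53.3 and 50.6 FPKM in the mutant, lower in both mutant libraries (difference -0.30, limma, adjusted p = 0.844). *BLT*, a trichome protein whose mutants lack branches, was listed at 3.73, 1.97, 4.61 and 3.04 FPKM and overlapped between genotypes (0.35, limma, adjusted p = 0.856). *NEK6*, a kinase that acts on tubulin, was listed at 4.55, 5.98, 6.97 and 5.89 FPKM, with overlap (0.25, limma, adjusted p = 0.857). *DWA3* (AT1G61210), a gene for a WD40-repeat protein, measured 1.71 and 2.23 FPKM in the wild type, against 1.59 and 1.43 FPKM in the mutant, again lower in both (-0.24, limma, adjusted p = 0.860). The WD40-repeat gene AT1G11160 stayed below 1 FPKM in every library and was not tested.

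Of 8 transcription factors of trichome shape, 5 were tested, 1 with a positive and 4 with a negative difference. The genes *GL3*, *MYB106* and *MYB5* were too low. *GL3*, a substrate of KAK, measured 1.13 and 0.562 FPKM in the wild type, against 0.733 and 0.252 FPKM in the mutant. *EGL3*, the other substrate, was listed at 2.71, 1.39, 1.30 and 1.58 FPKM, with overlap (-0.29, limma, adjusted p = 0.861). *TTG2*, a WRKY factor, measured 2.25 and 1.94 FPKM in the wild type, against 2.08 and 0.845 FPKM in the mutant, with overlap (-0.37, limma, adjusted p = 0.849). Besides *EGL3*, *TTG2* and *GL2* (0.25, limma, adjusted p = 0.878), the repressor *TRY* was among the 4 of smallest p, at 3.42, 1.51, 1.51 and 2.12 FPKM (-0.25, limma, adjusted p = 0.894). The list median of -0.25 became 0.026 or -0.45 when replicate 1 or 2 of Col-0 was left out, and -0.0045 when replicate 2 of *ect2* was.

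All 10 regulators of endoreduplication were tested, 4 with a positive and 6 with a negative difference and a median of -0.05, which was 0.07 without *ect2* replicate 2 and 0.12 at a minimum of 5 FPKM. *SPY*, an O-fucosyltransferase whose mutants have extra branches, measured 7.65 and 8.34 FPKM in the wild type, against 12.3 and 9.51 FPKM in the mutant, higher in both mutant libraries and highest in *ect2* replicate 1, as *AN* and *KTN1* were (0.40, limma, adjusted p = 0.842). *CPR5*, whose mutants have fewer branches and less DNA, measured 9.35 and 12.2 FPKM in the wild type, against 12.9 and 14.0 FPKM in the mutant, higher in both mutant libraries (0.30, limma, adjusted p = 0.844). *KRP1*, a CDK inhibitor, measured 7.76 and 7.49 FPKM in the wild type, against 5.69 and 6.74 FPKM in the mutant, lower in both (-0.26, limma, adjusted p = 0.848). *SIM*, the CDK inhibitor that keeps trichomes from dividing, was listed at 33.6, 29.2, 41.3 and 32.7 FPKM and overlapped (0.23, limma, adjusted p = 0.864). None of these values passed the test.

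**Figure D4:**
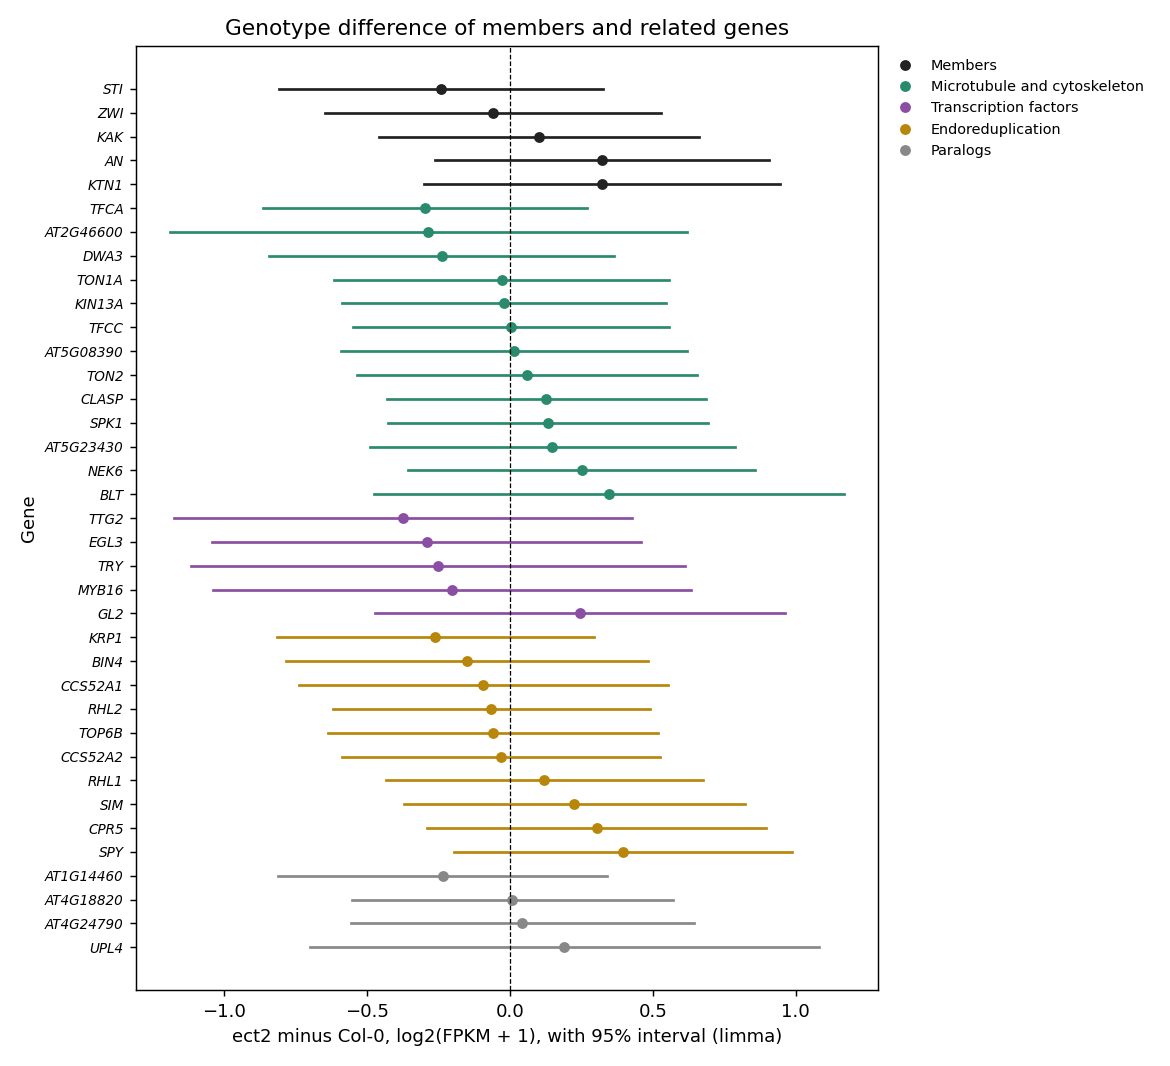
Difference of *ect2* minus Col-0 on the log2(FPKM + 1) scale with its 95% interval from limma, for the 5 members and the tested genes of the 3 lists and the paralogs; genes without a symbol in the annotation carry their locus identifier. Each interval includes 0, from *TTG2* (-0.37) at one end to *SPY* (0.40) at the other.

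Genes whose centred profile over the 4 libraries was most like that of a member were named by the smallest root mean square difference in log2(FPKM + 1). For *STI* they were *HO2*, a heme oxygenase (0.0027), *NDP1* (0.0090) and *WRKY9* (0.0112). For *ZWI* they were *QWRF8* (0.0130), *DPE1*, an enzyme of starch breakdown (0.0171), and *RPT5A*, a proteasome ATPase (0.0200). *AN* was closest to *CHB3* (0.0238), *EDA10* (0.0274) and *ETO1*, a regulator of ethylene synthesis (0.0279). *KTN1* was closest to *PRA1.E* (0.0116), *nMAT1* (0.0196) and *UBP14*, a ubiquitin protease (0.0217). *KAK* was closest to *TRB1* (0.0079), *UNE12* (0.0082) and *ckl7* (0.0113). With 4 libraries such closeness is common: from 517 genes for *KTN1* to 1600 for *KAK* lay within 0.1 of a member, which is 2.68% to 8.29% of those compared.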

How the data were processed

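Total RNA was extracted with TRIzol, bound to oligo(dT) beads and made into libraries with a NEBNext Ultra kit, per the labels' protocols. The tools used were cutadapt and TopHat and the genome build was TAIR10, per the submitters' processing notes. How fragments were counted (tool, annotation, strand, multiple matches) and whether libraries were scaled is not given in the sources consulted. Each library has its own deposited table, and its values are read as FPKM from the column name, the range and the totals. Identifiers of 32809 of 33544 loci matched the RefSeq annotation of TAIR10.1, which supplied gene models (model 1 of each locus) and sequences.

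Limma 3.58.1 (R 4.3.3) was applied to log2(FPKM + 1) of every gene that reached 1 FPKM in 2 or more libraries, with trend and robust estimation, two-sided, and Benjamini-Hochberg adjustment over 19308 genes. The procedure was also run on simulated data, with changes much larger than those of the members. That run does not bear on differences of the members' size. The value of 1 fragment was the most frequent product of FPKM and length below 0.25 among protein-coding genes with 1 transcript of over 1500 nt; 47.9% to 61.0% of the 177 to 238 such values lay within 1.25-fold of it. Fragment numbers are therefore estimates, and errors from them cover counting only. Transcripts were compared with blastn 2.17.0.

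Named genes are the 5 members, *ECT2*, paralogs, the 4 genes with the lowest p in each list and the 3 symbol-bearing genes most like each member. Named besides are the trichome markers, the listed genes that were too low to test, the genes that overlap *AN* or *KAK*, and the longest alignment of *KAK*. Members and lists were chosen with earlier results of these data known. The fit was repeated without each library in turn, with a replicate block, with TMM factors, quantile normalization or equal library medians, with a pseudocount of 0.1, no minimum, a minimum of 5 FPKM, and limma without trend.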

Additional observations from a re-analysis of the deposited data

How the results depend on the processing

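No member was called under any of the alternatives run, with adjusted p from 0.533 upward (limma). *STI* kept its negative sign (-0.34 to -0.21) in 11 alternatives, since a minimum of 5 FPKM removes it. *AN* (0.16 to 0.48), *KTN1* (0.10 to 0.54) and *KAK* (0.01 to 0.19) kept their positive sign in 12. Many of these could not change a sign. The replicate block, the changes of minimum and limma without trend leave the difference of a tested member as it was. Leaving out a library cannot reverse *STI*, *AN* or *KTN1*, whose genotypes did not overlap. *ZWI* ranged from -0.19 to 0.072 when a library was left out, and had a positive sign when replicate 2 of Col-0 (0.036) or of *ect2* (0.072) was left out. The median of the 3 lists then ranged from -0.072 to 0.12. The number of genes called over all genes was 5, and leaving out replicate 1 or 2 of Col-0 gave 11 or 520, while leaving out either replicate of *ect2* gave 0 (284 and 431 at an unadjusted p under 0.05), where the lone library of a genotype is assumed to vary like the others. Without Col-0 replicate 2, Col-0 rests on replicate 1, the library that stood apart. The cause was not tested. Same-numbered libraries did not deviate together gene by gene (r = 0.0138 over 19308 genes). Their estimated fragments were alike, at 11500000 in Col-0 and 11400000 in *ect2* for replicate 1, and 7960000 and 7280000 for replicate 2. Whether the numbers mark a shared batch cannot be told from these values. With a replicate block 6 genes were called and the members had adjusted p of 0.905 to 0.982. *STI* had the fewest estimated fragments of the 5 genes. Its standard error of 0.228 was close to those of the others (0.225 to 0.251). Since limma draws these errors toward a common value, their likeness does not show that the genes were measured equally well.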
